A study of Mus musculus with 93 samples.

Results

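The genes described here are the pacemaker channel genes Hcn2, Hcn3, Hcn4, Cacna1c, Cacna1d, Cacna1g, Cacna1h and Kcnq1. They were chosen by name as the pore-forming subunits behind pacemaker currents, and they are 8 of the 24514 genes in the count table. RNA was sequenced from pools of 10 cells sorted out of dissected regions of mouse embryos or out of spheroids made from embryonic stem cells, and read counts were obtained for 93 libraries. All cells carried Hcn4-GFP, Tbx1-Cre and Ai9. GFP+ cells therefore express a reporter of Hcn4 itself, and RFP+ cells hold the permanent Ai9 label that Tbx1-Cre leaves in a cell and its descendants, whether or not Tbx1 is still transcribed. There were 5 embryo GFP+ and 4 embryo RFP+ libraries, with embryonic day 8.5 in the titles and E7.75 in the protocol, and 38 spheroid GFP+ and 46 spheroid RFP+ libraries from day 5.5 of differentiation. The spheroids came from an embryonic stem cell line made from the same mice and were induced with Activin A, Bmp4, Wnt3A, Wnt5A and Wnt11, singly or together; which agents a well had received is not given in the sources used here. Each library is 1 well, wells were not tied to embryos or differentiations, and the p-values below measure the spread between wells, which may be technical.

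Pacemaker cells of the heart depolarise by themselves between beats. Hyperpolarization-activated channels of the Hcn family carry the inward "funny" current that opens after each beat, low-voltage T-type and low-threshold L-type calcium channels carry the later part of the slow depolarisation, L-type channels carry the upstroke, and delayed rectifier potassium channels end the action potential. In the early heart Hcn4 is switched on in the first myocardial precursors, well before a sinoatrial node exists, and it later narrows to the conduction system.

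Hcn4 and Cacna1d are the genes on which the comparisons below turn, since their order of level was opposite in the GFP+ cells of embryos and spheroids, so the 250 bases before a start site of each are printed for reference. The windows were taken from RefSeq on GRCm38.p6, where 4 of the 8 genes had an entry (Hcn2, Hcn4, Cacna1c and Cacna1d). The Hcn4 window lies on the plus strand at chr9:58822699-58822948, upstream of the start site at base 58822949. The Cacna1d window lies on the minus strand at chr14:30353487-30353736, upstream of the internal start site at base 30353486; neither window overlaps an annotated exon. CG dinucleotides are in capitals.
Hcn4: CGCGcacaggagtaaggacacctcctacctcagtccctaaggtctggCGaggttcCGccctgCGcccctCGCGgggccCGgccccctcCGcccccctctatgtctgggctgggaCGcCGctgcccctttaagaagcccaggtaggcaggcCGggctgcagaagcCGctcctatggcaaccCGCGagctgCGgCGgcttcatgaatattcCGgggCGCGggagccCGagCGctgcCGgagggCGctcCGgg
Cacna1d: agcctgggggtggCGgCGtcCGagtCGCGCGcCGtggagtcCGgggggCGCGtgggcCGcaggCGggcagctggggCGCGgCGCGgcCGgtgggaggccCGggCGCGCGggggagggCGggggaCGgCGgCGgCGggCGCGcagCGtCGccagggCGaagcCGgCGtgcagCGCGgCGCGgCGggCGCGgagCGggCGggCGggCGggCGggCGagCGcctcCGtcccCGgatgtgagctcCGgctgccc
The Hcn4 window had a GC content of 71.2% and 25 CG dinucleotides, a number reached by 10.7% of the 32851 windows of the same length. The Cacna1d window had 86.4% GC and 50 CG dinucleotides, which 0.1% of the windows reached. Cacna1d has a second window in the table, at the start site at base 30491156, which lies within an annotated exon and is not printed; it had 39.6% GC and 2 CG dinucleotides, a number reached by 81.2% of the windows. The median window had 52.4% GC and 6 CG dinucleotides. These are descriptions of letters, and no binding or methylation was measured.

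The totals per library were 712732 to 2525460 counts in embryo GFP+ cells, 1246546 to 1479957 in embryo RFP+ cells, 6288 to 4371849 in spheroid GFP+ cells and 445071 to 5658882 in spheroid RFP+ cells. Embryo GFP+ libraries had counts of far fewer genes, 6189 to 8302 with a median of 6830. The medians were 12232.5 genes in embryo RFP+, 13689 in spheroid GFP+ and 12948.5 in spheroid RFP+ libraries. In embryo GFP+ libraries an absent transcript and a missed one can therefore not be told apart. The lowest total, 6288 counts in spheroid GFP+ well C9, was the only one in its group at which no member had a count. Spheroid RFP+ wells filled plate columns 1 to 6 and spheroid GFP+ wells columns 7 to 11, so that population and plate position cannot be told apart there. In each population the embryo wells lay in other plate columns than the spheroid wells, so source and plate position cannot be told apart either. In 7 pairs of spheroid RFP+ wells the counts correlated at r = 0.975 to 0.994, with a chi-square per degree of freedom of 1.42 to 2.56 against 3.04 to 12.5 in the 103 other pairs of the same row. These pairs stood apart from all others and may be related, but differed by more than sampling noise and were kept as separate libraries; with each pair summed, 39 RFP+ libraries remained, and the values are given below. Transcripts of all 9 cardiomyocyte markers listed for this work had counts in every group, with a summed level of 17844 to 51911 CPM in embryo GFP+, 1192 to 2276 CPM in embryo RFP+, 0 to 1270 CPM in spheroid GFP+ and 14.1 to 138 CPM in spheroid RFP+ libraries. CPM, counts scaled to a common library size after TMM normalization, is the unit of level throughout. The 6 pluripotency markers summed to 0 to 0.436 CPM in embryo GFP+, 0 to 3.68 CPM in embryo RFP+, 58.0 to 1589 CPM in spheroid GFP+ and 6.28 to 569 CPM in spheroid RFP+ libraries.

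Embryo RFP+ well F12 stood apart from the other 8 embryo libraries. Its 5 blood markers summed to 1167 CPM against 0 in the other 3 RFP+ and at most 1.06 CPM in GFP+ libraries, and its endoderm markers to 178 CPM. Results on the 8 genes that rest on it are given with and without it. The channel partners, calcium genes and transcription factors named below as called in a comparison with embryo RFP+ cells were called without it as well.

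Most pacemaker channel genes were scarce. A library held counts of a median of 3 of the 8 genes in embryo GFP+ cells (range 3 to 6), 3.5 in embryo RFP+ (1 to 5), 4 in spheroid GFP+ (0 to 7) and 3 in spheroid RFP+ cells (0 to 6). When libraries were thinned to 700000 counts, which left out 4 of the 93, the medians were 3, 2.5, 3 and 2. The highest number, 7 genes, was counted in spheroid GFP+ well B9, which has 3577680 counts in total. Only Hcn4 and Cacna1d had a count in all 5 embryo GFP+ libraries. Since each library is the RNA of 10 pooled cells, fewer cells with a transcript and less transcript per cell cannot be told apart.

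**Figure D1:**
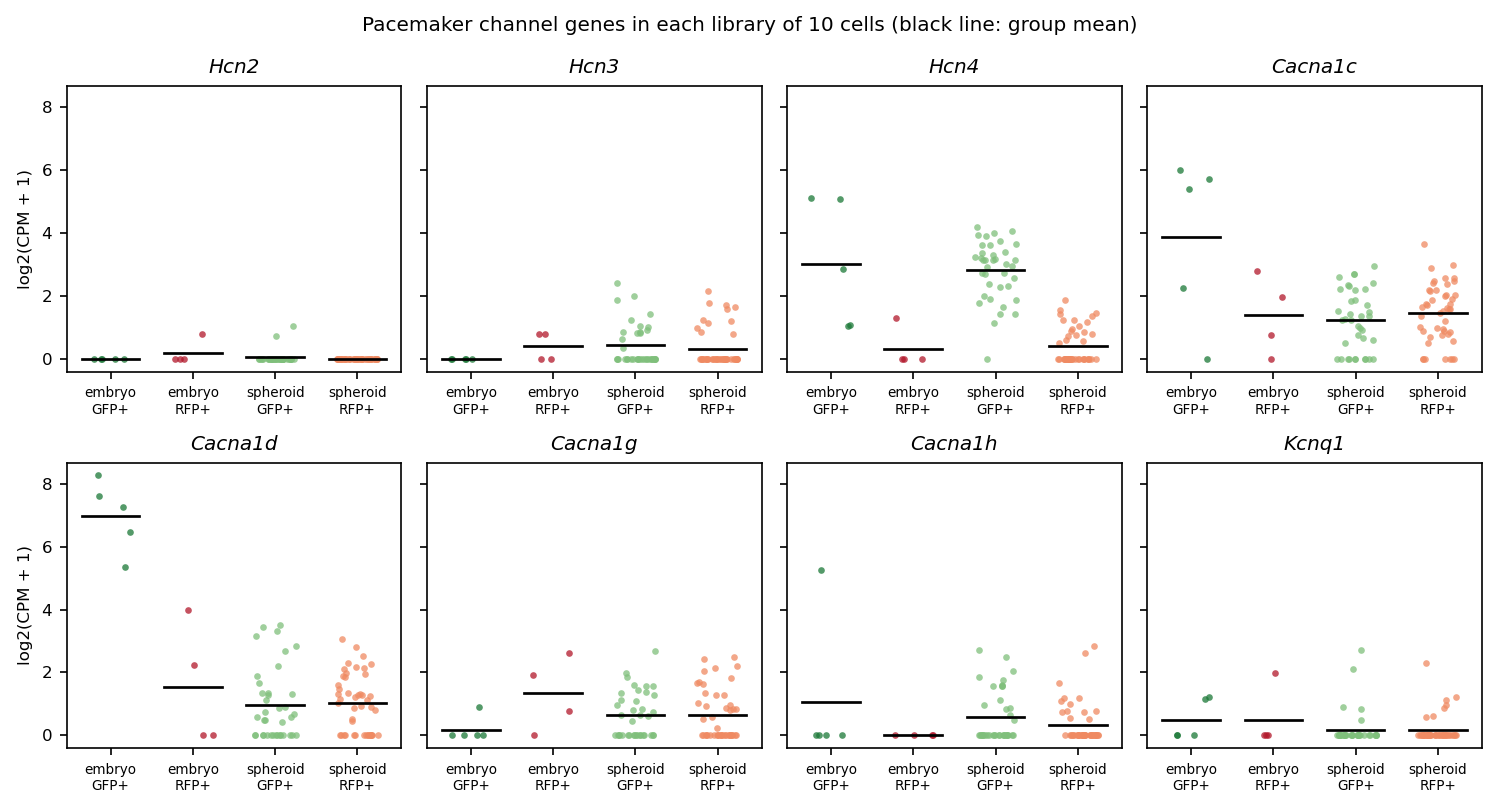
Level of each of the 8 genes on a log2(CPM + 1) scale in each of the 93 libraries, 1 point per library of 10 cells, by group (5 embryo GFP+, 4 embryo RFP+, 38 spheroid GFP+, 46 spheroid RFP+), with a black line at the group mean. Cacna1d in embryo GFP+ cells stands above every other group, and Hcn2 is at 0 in nearly all libraries. Hcn4 is high in embryo GFP+ wells B12 and D12 and low in the other embryo GFP+ wells. In spheroids, 32 of 38 GFP+ libraries lie above the highest RFP+ library for Hcn4.

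Of the Hcn family, Hcn4 (chr9:58823412-58863175, plus strand on GRCm38, 8 exon blocks and 6118 exonic bases) was the one with a substantial level. It is the gene of the reporter, and its difference between GFP+ and RFP+ cells therefore checks the sort and is not a finding. In embryo GFP+ cells it had 1 count in well A12 (1.09 CPM), 77 in B12 (33.5 CPM), 5 in C12 (6.22 CPM), 70 in D12 (32.5 CPM) and 1 in E12 (1.06 CPM). In embryo RFP+ cells 2 counts were found in well H11 (1.44 CPM) and none in F12, G11 and G12. Wells B12 and D12 were thus high, the other GFP+ wells low, and A12 and E12 fell below the RFP+ well H11, so the groups overlapped. The group means were 14.9 ± 16.7 CPM (SD, n = 5) and 0.36 ± 0.72 CPM (n = 4), and the ratio of the summed counts, scaled by the summed library sizes, was 57.8 with a counting interval of 15.7 to 481, which covers counting error only because the reads carry no molecular identifiers. On the log2 CPM scale with a prior count of 2, the difference of RFP+ from GFP+ cells was -2.38 (two-sided exact permutation test, p = 0.0476), and with any 1 embryo library left out p was 0.0571 to 0.125. The share of libraries with a count was 5 of 5 against 1 of 4 (Fisher's exact test, two-sided, p = 0.0476), and Hcn4 was the only one of the 8 genes under 0.05 in that test, where 0.0993% of all genes were lower in RFP+ cells at the same threshold.

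Spheroid GFP+ cells held Hcn4 more evenly. The lowest library had 0 CPM (well C9), the median 7.45 and the highest 17.1 CPM, with 37 of 38 libraries above 0 (exact 95% binomial interval 86.2 to 99.9%). Spheroid RFP+ libraries ranged from 0 over a median of 0 to 2.64 CPM, and 18 of 46 had a count (25.1 to 54.6%). Of the GFP+ libraries, 32 of 38 were above the highest RFP+ library and the other 6 lay within the RFP+ range. The means were 7.32 ± 4.42 CPM (SD, n = 38) and 0.447 ± 0.672 CPM (n = 46), a ratio of 16.4, and the log2 CPM difference was -2.28 (permutation test with 100000 resamples, p = 1e-05, the smallest these resamples can give). The share with a count differed by -58.2 percentage points (Fisher's exact test, p = 5.12e-09); no other of the 8 genes passed 0.05 in this test, and 12.2% of all genes were lower in RFP+ libraries by it. With the 7 pairs summed, the log2 CPM difference was -2.37 (permutation test, p = 1e-05) and Hcn4 was counted in 15 of 39 RFP+ libraries (Fisher's exact test, p = 1.17e-08), while the other 7 genes still had p of 0.109 or more in the test of level and 0.24 or more in the test of shares. At 700000 counts a library, Hcn4 was counted in 37 of 37 GFP+ and 9 of 43 RFP+ libraries. Tbx1, the gene whose Cre left the RFP label, was at 0 in all 5 embryo GFP+ libraries and had 5, 5, 12 and 0 counts in embryo RFP+ wells F12, G11, H11 and G12; in spheroids its means were 0.030 ± 0.131 CPM in GFP+ and 2.52 ± 1.84 CPM in RFP+ cells.

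Between sources, the Hcn4 level of GFP+ cells differed by 0.22 on the log2 CPM scale (exact permutation test, p = 0.661), although the mean was 2.03 times higher in embryos. The spread was the clearer contrast, with an SD above the mean in 5 embryo libraries and below it in 38 spheroid libraries. The fitted edgeR log2 fold change was 0.88 with an SE of 0.47 and an adjusted p of 0.101, and it depended on the processing: it was 1.24 (adjusted p = 0.0144) with DESeq2 size factors. Between RFP+ cells of the 2 sources the Hcn4 test did not pass 0.05 (log2 CPM difference -0.07, exact permutation test, p = 0.79).

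Hcn2 and Hcn3, the other Hcn members, were near the limit of counting. Hcn2 (chr10:79716634-79736108), a subunit best known from brain and ventricle, had 1 count in embryo RFP+ well F12 (0.737 CPM), 2 counts in spheroid GFP+ well D11 and 1 in F7, and none in any other library. At a limit of 3 over the number of libraries, the absence from 46 spheroid RFP+ libraries allows a share of libraries with a count of up to 6.52% (upper bound of the exact 95% interval 7.71%), and that from 5 embryo GFP+ libraries one of up to 60% (52.2%). Hcn3 (chr3:89146074-89160196) was at 0 in the 5 embryo GFP+ libraries and had 1 count each in embryo RFP+ wells F12 (0.737 CPM) and H11 (0.721 CPM). In spheroids it ranged from 0 to 4.37 CPM in GFP+ cells, with a mean of 0.527 ± 0.976 CPM and counts in 14 of 38 libraries, and from 0 to 3.42 CPM in RFP+ cells, with a mean of 0.406 ± 0.830 CPM and counts in 11 of 46. The 2 spheroid populations overlapped almost fully (log2 CPM difference -0.09, permutation test, p = 0.486). Of the Hcn3 exons, 711 bases (17.12%) also belong to Pklr on the other strand, and whether counting used the strand is not given in the sources used here.

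Cacna1d, the pore of the low-threshold L-type channel CaV1.3 that opens during diastolic depolarisation, was the pacemaker channel gene with the highest level per kb of exon in embryo GFP+ cells. On the log2 CPM scale with a prior count of 2 it had the largest differences of the 8 between the embryo populations and between GFP+ cells of the 2 sources; between the embryo populations Hcn4 differed more by the ratio of means, and Hcn4 and Cacna1h had larger log2 fold changes with DESeq2 and in edgeR without a filter on low counts. It lies on chr14:30039939-30491455 (minus strand, 12621 exonic bases, 589 of them shared with Chdh on the other strand). In embryo GFP+ cells it had 280 counts in well A12 (306 CPM), 446 in B12 (194 CPM), 121 in C12 (151 CPM), 187 in D12 (86.9 CPM) and 38 in E12 (40.3 CPM). In embryo RFP+ cells it had 5 counts in F12 (3.68 CPM), 21 in G11 (14.8 CPM) and none in G12 and H11. Every GFP+ library was above every RFP+ library. Cacna1d was the only one of the 8 genes whose embryo groups did not overlap, a pattern in which 2.03% of all genes with a count were lower in RFP+ cells.

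The means were 156 ± 103 CPM (SD, n = 5) and 4.62 ± 7.0 CPM (n = 4), a ratio of 33.7. With 1 library left out it ran from 25.3 to 127, the latter without RFP+ well G11, which held 21 of the 26 RFP+ counts; the edgeR log2 fold change given next was then -6.88. The log2 CPM difference was -5.13 (exact permutation test, p = 0.00794, the smallest that 126 arrangements of 5 and 4 libraries can give). In the fit over all genes Cacna1d was the only member that passed the filter on low counts, and it was lower in RFP+ cells with a log2 fold change of -5.06 (SE 1.37, edgeR quasi-likelihood test, adjusted p = 0.0374), against 3.88% of the 8503 tested genes called lower and a median log2 fold change of 0.09. It passed the filter through the GFP+ cells, with 38 to 446 counts a library against 0 to 21 in RFP+ cells. The filter itself thus favoured this direction. Without RFP+ well F12 the edgeR call was lost (log2 fold change -4.96, adjusted p = 0.116), while the log2 CPM difference was -5.30 (exact permutation test, p = 0.0179, the smallest that 56 arrangements can give). The cardiomyocyte markers given above moved with it, and all 8 of those tested were lower in RFP+ cells with a median log2 fold change of -3.90 (without F12, 7 of the 8, the exception being Myh7); their part in the Cacna1d result was not tested.

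Spheroid cells had little Cacna1d in either population. GFP+ libraries ranged from 0 over a median of 0.494 to 10.3 CPM (well H7), with 23 of 38 above 0, and RFP+ libraries from 0 over 1.11 to 7.39 CPM (well E5), with 30 of 46 above 0. The 2 ranges overlapped throughout. The means were 1.82 ± 2.96 and 1.5 ± 1.74 CPM, and the log2 CPM difference was 0.04 (permutation test, p = 0.842). The population difference was thus -5.13 in the embryo and 0.04 in spheroids on that scale. The difference between the separate edgeR log2 fold changes, fitted without a filter on low counts, was -4.69 (SE 1.38, p = 0.0116), which did not pass adjustment over 15069 genes (adjusted p = 0.154). None of the 8 genes passed it there, and Cacna1d was the 1 with an unadjusted p under 0.05. Of all 15069 genes, 3263 had an unadjusted p under 0.05 in the same test, so 1 of 8 does not set the members apart.

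GFP+ cells of the embryo held far more Cacna1d than those of spheroids. The lowest embryo GFP+ library, at 40.3 CPM, was above the highest spheroid GFP+ library, at 10.3 CPM; no other member had such a gap, and 1.54% of all genes with a count were higher in the embryo without overlap. The ratio of the means was 85.3, and 64.7 to 101 with 1 embryo library left out. The log2 CPM difference was 5.94 (exact permutation test, p = 1.04e-06, the smallest that the arrangements allow), and the edgeR log2 fold change was 6.13 (SE 0.55, adjusted p = 9.67e-14), where 19.7% of the 11822 tested genes were called higher in embryo cells. The embryo libraries alone were enough for Cacna1d to pass the filter on low counts in this fit. The median log2 fold change of all genes was -0.67 in this comparison and -0.22 with DESeq2 size factors, under which Cacna1d stood at 6.58. The cardiomyocyte markers moved the same way (8 of 8 tested higher in the embryo, median 6.97) and the pluripotency markers the opposite way (6 of 6 lower); their part was not tested. RFP+ cells showed no such difference in Cacna1d (log2 CPM difference 0.52, exact permutation test, p = 0.275).

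Cacna1c, which encodes CaV1.2, the main L-type channel of working myocardium, lies on chr6:118587240-119196418 (minus strand). Embryo GFP+ cells had 38 counts in well A12 (41.5 CPM), 144 in B12 (62.7 CPM), none in C12, 8 in D12 (3.72 CPM) and 49 in E12 (51.9 CPM). Embryo RFP+ cells had 8 counts in F12 (5.89 CPM), 1 in G11 (0.704 CPM), none in G12 and 4 in H11 (2.88 CPM). A12, B12 and E12 were high, while C12 and D12 lay within the RFP+ range. The means of 32.0 ± 28.5 CPM and 2.37 ± 2.65 CPM differed 13.5-fold, or 26.7-fold without F12, but the log2 CPM difference of -2.36 did not pass the exact permutation test (p = 0.127; without F12 -2.76, p = 0.107), and the gene did not pass the filter for edgeR. With DESeq2, which tested 4 of the 8 genes, Cacna1c (log2 fold change -3.92, adjusted p = 0.0489), Cacna1d (-5.23, adjusted p = 0.000535) and Hcn4 (-5.45, adjusted p = 0.0161) were lower in RFP+ cells, against 5.33% of all genes.

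In spheroids Cacna1c was counted in more libraries than any other member but Hcn4 in GFP+ cells, yet at low levels. GFP+ libraries ranged from 0 over a median of 1.36 to 6.68 CPM (28 of 38 with a count) and RFP+ libraries from 0 over 1.99 to 11.4 CPM (39 of 46 with a count). The populations overlapped throughout and had means of 1.87 ± 1.88 and 2.33 ± 2.24 CPM (log2 CPM difference 0.22, permutation test, p = 0.264). Embryo GFP+ cells were higher than spheroid GFP+ cells by 2.62 on the log2 CPM scale (exact permutation test, p = 0.000479), with a ratio of means of 17.1. Without a filter on low counts, 3 members were higher in embryo GFP+ cells by edgeR against 13.7% of all genes, namely Cacna1c (log2 fold change 3.89, SE 0.58, adjusted p = 1.7e-07), Cacna1d and Cacna1h, the last on the counts of 1 library. Hcn3 was called lower (log2 fold change -3.18, adjusted p = 0.0448), where 42.1% of all genes were lower; its embryo GFP+ libraries are all at 0, so the size depends on the prior count. DESeq2 called Cacna1c, Cacna1d and Hcn4 higher there, against 23.9% of all genes.

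**Figure D2:**
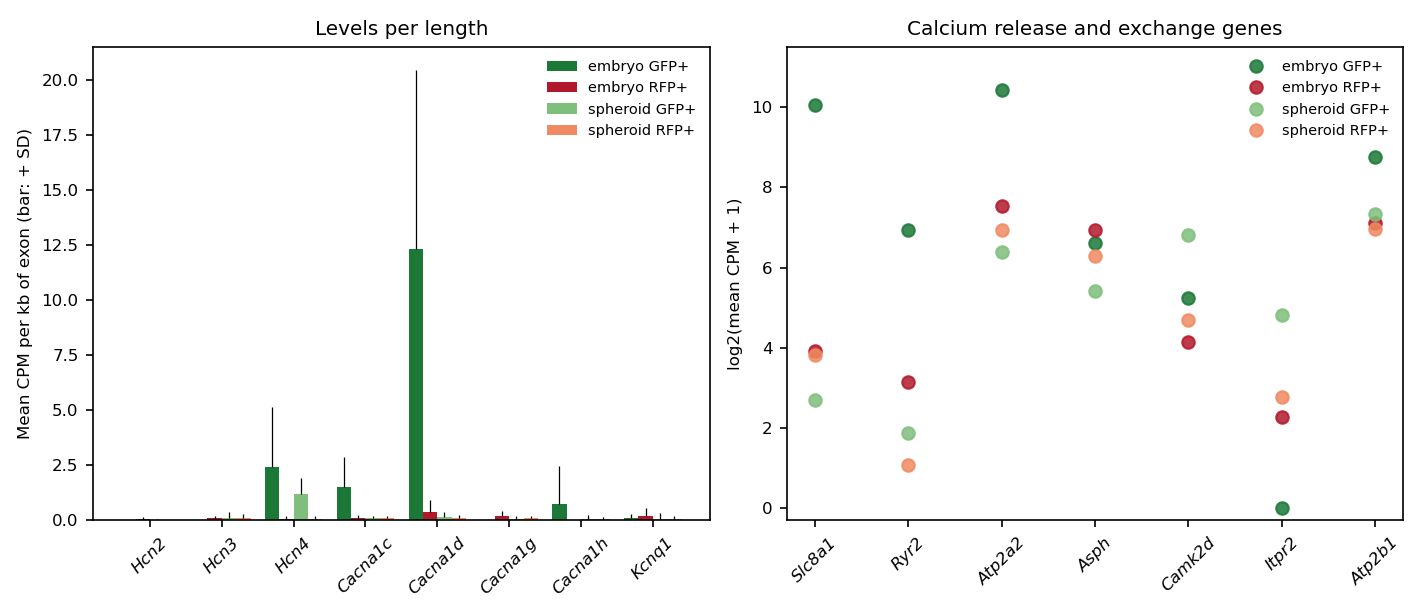
Left, mean CPM per kb of exon of the 8 genes in the 4 groups, with bars of 1 SD upward; embryo GFP+ cells have 12.3 for Cacna1d and 2.43 for Hcn4, and spheroid GFP+ cells 1.20 for Hcn4 and 0.145 for Cacna1d. Right, log2(mean CPM + 1) of 7 calcium release and exchange genes in the same groups; Slc8a1, Ryr2 and Atp2a2 stand apart in embryo GFP+ cells and Itpr2 is at 0 there.

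The T-type channel genes were rare in all 4 groups. Cacna1g (chr11:94408391-94474198), the pore of CaV3.1 and the main T-type channel of the adult node, had 2 counts in embryo GFP+ well B12 (0.871 CPM) and none in the other 4 wells. In embryo RFP+ cells it had 4 counts in G11 (2.82 CPM), 6 in G12 (5.13 CPM), 1 in H11 (0.721 CPM) and none in F12. It was the only member with more counts in the RFP+ cells of the embryo than in the GFP+ cells by a margin beyond counting error, at a ratio of summed counts, scaled by the summed library sizes, of 7.33 (counting interval 1.60 to 68.1), yet the groups overlapped and the log2 CPM difference of 0.95 did not pass the exact permutation test (p = 0.127; without F12, p = 0.0357). In spheroids the ranges were 0 to 5.35 CPM in GFP+ and 0 to 4.57 CPM in RFP+ cells with means of 0.804 ± 1.13 and 0.862 ± 1.27 CPM, and counts were found in 20 of 38 and 22 of 46 libraries. No difference was detectable between the spheroid populations (permutation test, p = 1.00).

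Cacna1h (chr17:25374285-25433783, 158 exonic bases shared with Tpsg1), the pore of CaV3.2, rested on 1 library in the embryo. Well B12 of the GFP+ cells had 85 counts (37.0 CPM), and the other 8 embryo libraries had none. The same well held the most Hcn4, Cacna1c and Cacna1d counts and has the largest total of its group. The mean of 7.41 ± 16.6 CPM is at least 3.27-fold that of RFP+ cells, taking 3 counts per library as the floor, and 0 without B12. In spheroids GFP+ libraries ranged from 0 to 5.57 CPM (well C7, 25 counts) and RFP+ libraries from 0 to 6.21 CPM (well H3, 4 counts), so that no GFP+ library was above the highest RFP+ library, and counts were found in 15 of 38 and 13 of 46 libraries. The means of 0.818 ± 1.37 and 0.477 ± 1.23 CPM differed by -0.22 on the log2 CPM scale (permutation test, p = 0.149).

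Kcnq1 (chr7:143106362-143427042, plus strand), the pore of the slow delayed rectifier, had 3 counts in embryo GFP+ well B12 (1.31 CPM), 1 in C12 (1.24 CPM) and 4 in embryo RFP+ well F12 (2.95 CPM), and none elsewhere in the embryo. Both groups therefore lay mostly at 0 (log2 CPM difference 0.04, exact permutation test, p = 1), and without F12 the RFP+ libraries had no count. In spheroids it was counted in 5 of 38 GFP+ and 7 of 46 RFP+ libraries, with 20 of its 29 GFP+ counts in well B9 (5.60 CPM). Its antisense RNA Kcnq1ot1 starts within the gene, shares 121 exonic bases with it and had far more reads, at means of 143 CPM in embryo GFP+, 196 in embryo RFP+, 538 in spheroid GFP+ and 630 CPM in spheroid RFP+ cells. These means are not scaled by length, and Kcnq1ot1 has 93092 exonic bases against 4093 in Kcnq1. Without knowledge of the strand used in counting, reads of the shared bases cannot be assigned.

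**Figure D3:**
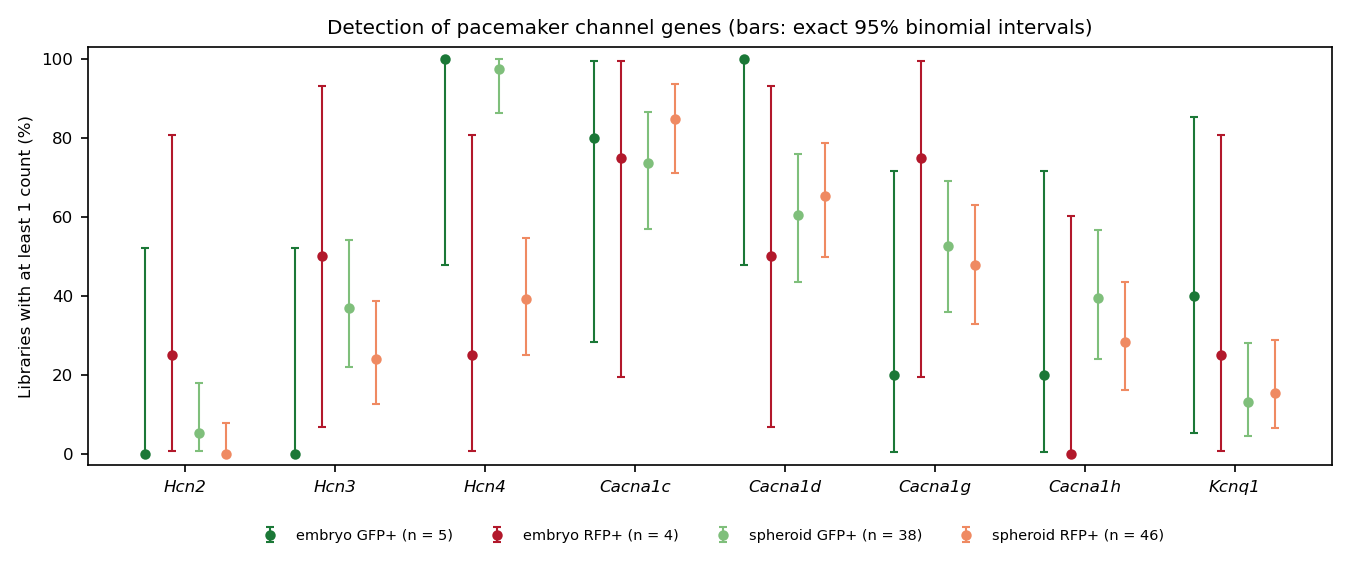
Share of libraries with at least 1 count of each gene, in percent, by group (5 embryo GFP+, 4 embryo RFP+, 38 spheroid GFP+ and 46 spheroid RFP+ libraries); points are shares and bars exact 95% binomial intervals, which cover counting error only. Hcn4 differs between spheroid populations, 97.4% against 39.1%, while the intervals of the other 7 genes overlap in spheroids.

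Of 32 single-gene tests of level (8 genes in 4 comparisons, not adjusted for their number), 5 had a p under 0.05: Hcn4 and Cacna1d between the embryo populations, Hcn4 between the spheroid populations, and Cacna1d and Cacna1c between GFP+ cells of the 2 sources. Of 32 tests of the share of libraries with a count, the 2 for Hcn4 between populations had one. No p was under 0.05 by either test between RFP+ cells of the 2 sources, though without well F12 Cacna1g was higher in the embryo by 1.01 on the log2 CPM scale (exact permutation test, p = 0.0198). The Hcn4 differences between populations check the sort, as stated above. The share of all genes under 0.05 in the test of level was not computed. By edgeR, 3.88% of tested genes were called lower in embryo RFP+ cells and 40.1% lower in spheroid RFP+ cells. Between GFP+ cells, 19.7% were called higher in the embryo. In the edgeR fit of spheroid populations no member passed the filter. Without it, Hcn4 (log2 fold change -3.82, SE 0.32, adjusted p = 1.37e-19) and Hcn2, with 3 counts in all (adjusted p = 0.0691), were called lower in RFP+ cells, where 35.3% of all genes were; DESeq2 called Hcn4 alone, where it called 39.1% of genes lower. In RFP+ cells of the 2 sources no member passed the filter either, and without it Hcn2, on 1 count, was called higher in the embryo (adjusted p = 0.0825), where 13.2% of all genes were; that count is in F12, and without it no library of either RFP+ group had a count of Hcn2.

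Levels of different genes are compared here only per kb of exon. In embryo GFP+ cells Cacna1d led with 12.3 ± 8.13 CPM per kb, followed by Hcn4 with 2.43 ± 2.73, Cacna1c with 1.51 ± 1.35, Cacna1h with 0.759 (1 library), Kcnq1 with 0.125 and Cacna1g with 0.0172 CPM per kb. Cacna1d was above Hcn4 in 5 of 5 libraries, whereas Hcn4 was above Cacna1c in 3 of 5, a pair not separated by its spread. In spheroid GFP+ cells Hcn4 led with 1.20 ± 0.723 CPM per kb, and the other 7 lay between 0.0141 (Hcn2) and 0.145 (Cacna1d) with neighbours that did not differ beyond their spread. Hcn4 was above Cacna1d per kb in 37 of 38 spheroid GFP+ libraries, the exception being C9 with neither, and in 0 of 5 embryo GFP+ libraries. This order within a library does not depend on scaling between libraries. In RFP+ cells no order held: the highest mean was that of Cacna1d in both sources, at 0.366 and 0.119 CPM per kb, and neighbours crossed from library to library.

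**Figure D4:**
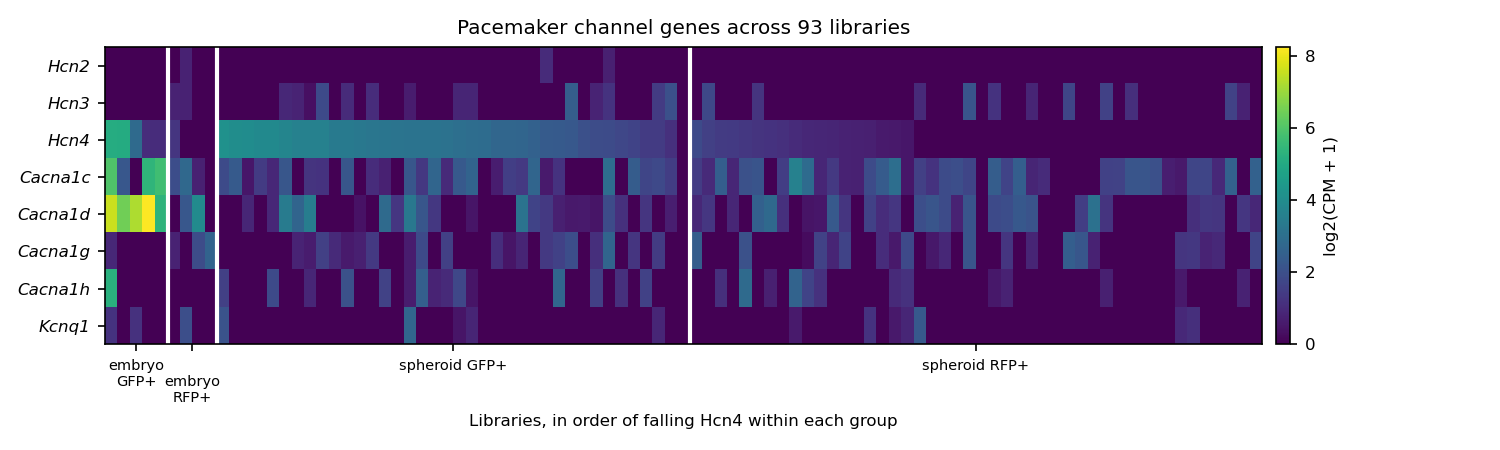
Level of the 8 genes (rows) in the 93 libraries (columns) on a log2(CPM + 1) colour scale, with libraries of each group in order of falling Hcn4. In embryo GFP+ cells Cacna1d stays bright while Hcn4 fades, and in spheroid GFP+ cells Cacna1d, Cacna1c and the T-type genes are scattered along the Hcn4 gradient.

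Within these libraries the members correlated only weakly with Hcn4, and at their low counts a link between them could be hidden. Over all 93 libraries the Spearman correlations of log2 CPM with Hcn4 ran from -0.027 for Cacna1g to 0.282 for Cacna1h, among the 5 members with a count in at least 19 libraries, and over the 38 spheroid GFP+ libraries they were 0.051 for Cacna1d, 0.040 for Cacna1c and -0.195 for Cacna1g. The 5 genes most like Hcn4 among the 15307 ranked over 93 libraries were Frrs1 (rho 0.775), Atxn1 (0.774), M6pr (0.769), Cyba (0.767) and Trim6 (0.762), against a median of 0.049. Within the 38 spheroid GFP+ libraries they were Etaa1 (0.644), Tsen15 (0.641), Lgalsl (0.609), Rpl10a (0.605) and Apela (0.591). For Cacna1d the closest over 93 libraries were Ank3 (0.498), whose product anchors membrane channels, Poglut1 (0.450), Pls3 (0.447), Myh6 (0.424), a cardiac myosin heavy chain, and Acat1 (0.421), and over 38 spheroid GFP+ libraries Ano1 (0.616), a calcium-activated chloride channel, Vmac (0.599), Zhx1 (0.561), Emc9 (0.557) and Gm14023 (0.555). The points share library, depth and group, and these values are descriptions.

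Channel partners were sparse as well. Of 13 auxiliary subunits of calcium channels, 2 were tested between the embryo populations and 1 was called, Cacna2d2, which had 36.5 ± 20.7 CPM in GFP+ cells, with counts in 5 of 5 libraries, and none in RFP+ cells, at least 16.1-fold lower (edgeR, adjusted p = 0.0217). Of 28 potassium channels and subunits, 2 were tested and Kcnj5, a subunit of the acetylcholine-gated channel that slows the pacemaker, was called lower in RFP+ cells (adjusted p = 0.0106). Kcnj5 had 154 ± 131 CPM in GFP+ cells and 1 count in RFP+ cells. Both genes passed the filter on low counts through the GFP+ cells, and without B12, C12, D12 or E12 neither passed it. No gene of the other calcium channel pores, sodium channels or Hcn partners could be tested in the embryo.

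In the spheroid comparison most genes were called, 37.8% of the 9940 tested as higher and 40.1% as lower in RFP+ cells, and the calls of listed genes are to be read against these shares. The single tested gene of the other calcium channel pores, Cacna1b, the neuronal N-type pore, was lower in RFP+ cells (log2 fold change -1.83, SE 0.22, edgeR adjusted p = 3.02e-12), at 4.32 against 14.7 CPM. Of 2 tested auxiliary subunits Cacna2d1 was lower (-1.46, adjusted p = 1.59e-08), and of 2 tested sodium channel genes Scn3b, a beta subunit, was lower (-3.39, adjusted p = 1.17e-19), at 2.58 against 26.0 CPM. No potassium channel or Hcn partner passed the filter there. Cacna1b was counted in 37 of 38 spheroid GFP+ and in 0 of 5 embryo GFP+ libraries.

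Between GFP+ cells of the 2 sources the channel lists split, where 19.7% of all tested genes were called higher and 48.3% lower in the embryo. Cacna2d2 (log2 fold change 5.09) and Cacnb4 (1.64, with counts in 1 of 5 embryo libraries) were higher in the embryo and Cacna2d1 (-1.47) lower, of 4 tested. Among 6 tested potassium channel genes Kcnk3, a background channel, was higher (2.61), and 3 were lower, among them Kcnj3 and Kcnn1, which were at 0 in the embryo and at least 3.10- and 1.10-fold higher in spheroids. The 4 tested sodium channel genes, Cacna1b and Cacna1a were at 0 in all embryo GFP+ libraries, the group with the lowest median number of genes counted. They and the potassium channel genes at 0 passed the filter through the spheroid cells alone, which fixed their direction, and their levels are given as bounds: spheroid GFP+ cells were at least 10.1-fold higher for Scn3b, 5.04-fold for Scn8a, 5.72-fold for Cacna1b and 1.86-fold for Cacna1a. In RFP+ cells, where 20.1% of genes were called higher and 22.5% lower in the embryo, Cacna1b was higher (1.56, adjusted p = 0.0204), a call lost without G12 (0.15, adjusted p = 0.904), and Kcnj3, at 0 there, at least 1.5-fold lower, while the 3 tested auxiliary subunits and 4 tested sodium channel genes had edgeR adjusted p of 0.317 or more and 0.394 or more. Exons shared with other genes make up 31.08% of Kcnj3 and 15.99% of Cacnb4.

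Genes of calcium release and exchange, which supply the calcium clock of pacemaker cells, were well counted. In the embryo 7 of 11 were tested, with 4 lower and 1 higher in RFP+ cells (3.88% and 6.21% of all genes) and a median log2 fold change of -1.72. Slc8a1, the sodium-calcium exchanger, was lower by -6.26 (SE 0.56, edgeR adjusted p = 3.39e-05), from 1058 ± 693 CPM in GFP+ to 14.2 ± 3.56 CPM in RFP+ cells. Ryr2, the calcium release channel, was lower by -3.98 (adjusted p = 0.0988), and Atp2a2, the reticulum calcium pump, by -2.95 (adjusted p = 2.46e-05). The call of Ryr2 was lost under another scaling and without A12, B12, E12, G11, G12 or H11.

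In spheroids 7 of 11 were tested, 4 higher and 3 lower in RFP+ cells, with a median of 0.50; with 37.8% of all genes called higher and 40.1% lower, such counts are near the background. Slc8a1 was higher there (1.17, adjusted p = 0.000392), at 13.2 ± 6.56 CPM against 5.51 ± 9.30 CPM in GFP+ cells, and Asph (0.80), which shares 14.71% of its exonic bases with other genes, was higher as well. Camk2d, a calcium-dependent kinase, was lower (-2.25), as were Itpr2, an inositol trisphosphate receptor (-2.17), and Atp2b1 (-0.44), a plasma membrane calcium pump. The population differences of Slc8a1 and Atp2a2 (0.50 in spheroids) thus had opposite signs in embryo and spheroid. The difference of the 2 log2 fold changes was -7.43 for Slc8a1 (SE 0.64, adjusted p = 0.0109) and -3.45 for Atp2a2 (SE 0.26, adjusted p = 0.00929), in the test of separate edgeR fits over 8182 genes. The other 8 listed genes that could be entered had adjusted p of 0.154 or more.

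GFP+ cells of the embryo had more Slc8a1 (log2 fold change 7.38), Ryr2 (5.23) and Atp2a2 (3.88) than those of spheroids, and less Itpr2 (at least 10.5-fold) and Camk2d (-1.76), with 5 of 8 tested higher and a median of 1.14. RFP+ cells of the embryo had more Asph (0.67) and Atp2a2 (0.62) than those of spheroids, 2 of 7 tested. The plot of calcium genes by group shows these levels beside the channels.

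Of 8 transcription factors known from the sinoatrial node and its surroundings, 6 were tested in the embryo, with Tbx5 lower in RFP+ cells (-7.80, SE 1.15, edgeR adjusted p = 0.00122; 176 ± 101 CPM in GFP+ against 0.720 ± 0.832 CPM in RFP+ cells) and a median of -2.27. Tbx5 passed the filter on low counts through the GFP+ cells. In spheroids 3 were tested. Tbx18, which marks the venous pole and shares 20.56% of its exonic bases with another gene, was higher in RFP+ cells (3.03, adjusted p = 7.73e-13), and Isl1 was lower (-1.40, adjusted p = 2.85e-18). Between GFP+ cells 5 of 6 tested were higher in the embryo, led by Tbx5 (6.92) and Tbx18 (5.06), with a median of 2.30, and between RFP+ cells Isl1 (2.54) and Tbx3 (1.57) were higher in the embryo, of 4 tested; the call of Tbx3 was lost without G11 (1.33, adjusted p = 0.158).

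Markers of other cell types were measured beside these groups. In the embryo, 3 endothelial markers were tested and Emcn was higher in RFP+ cells, and the 6 endothelial markers summed to 0 to 89.6 CPM in GFP+ and 56.4 to 233 CPM in RFP+ libraries. In spheroid RFP+ cells Kdr and Foxa2 were higher, Epcam lower, and Ttn, Tnni1 and Myl7 were lower, 3 of 4 cardiomyocyte markers tested. The summed level of all 9 cardiomyocyte markers was not lower at the median, with 58.4 CPM in spheroid RFP+ and 52.7 CPM in spheroid GFP+ libraries. Dppa5a, Zfp42 and Utf1 led the 5 of 5 tested pluripotency markers that were lower in spheroid RFP+ cells, the same direction as Hcn4. The part of these cells in the channel results was not tested.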

How the data were processed

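The authors sorted 10 cells per well, made full-length cDNA and tagmented libraries, and deposited whole-number read counts per gene without normalization for 93 libraries. Their notes name Trimmomatic 0.36, HISAT2 2.0.4, featureCounts 1.5.2 of Subread and DESeq2; the genome is mm10, and the annotation and strand setting of the counting are not given in the sources used here. Groups came from the labels, and all 93 libraries were used.

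The fits were made with edgeR 4.0.16 under R 4.3.3 (TMM, filterByExpr with a minimum count of 10, quasi-likelihood test) in a separate fit for each of 4 comparisons, with Benjamini-Hochberg adjustment over all genes tested and calls under 0.1. DESeq2 1.42.0 was an alternative. For single genes, log2 CPM (prior count 2) were compared by two-sided permutation tests (exact where a group had under 10 libraries, otherwise 100000 resamples), and on the share of libraries with a count by Fisher's exact test (SciPy 1.17.1). Binomial intervals are exact Clopper-Pearson intervals at 95%. Levels per kb use the exonic length in GENCODE M21 (GRCm38, the same assembly as mm10); promoters came from RefSeq. The difference of population effects was taken from the separate fits and their standard errors. The scripts were tested on simulated data.

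The 8 genes, the gene lists, the tests and the alternatives were chosen with earlier results of these data known. Besides the 8 genes, the text names up to 3 called genes in each direction per list and comparison, by size of change, Tbx1, and the 5 genes most like Hcn4 and Cacna1d by Spearman correlation; a few listed genes are counted in their lists but not reported here by name. Alternatives were DESeq2, other size factors, other filters, a threshold of 0.05, a robust fit, plate row as a covariate, thinning to 700000 counts, at least 3 counts, a prior count of 0.5 and leaving out well C9 or each embryo library. The summing of near-identical wells in the single-gene tests, and the difference test without a filter, were added after seeing the data.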

Additional observations from a re-analysis of the deposited data

Results flagged for a closer look

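In 5 cases 1 embryo library stood far from the others of its group by Dixon's gap test. That test flags any group in which 1 library alone has a count, however low. Its usual rate of about 1 group in 20 by chance does not apply to such groups. All 5 were the only library of their group with a count: Hcn2 in RFP+ well F12 (0.737 CPM, 1 count), Hcn4 in RFP+ well H11 (1.44 CPM, 2 counts), Cacna1g in GFP+ well B12 (0.871 CPM, 2 counts), Cacna1h in GFP+ well B12 (37.0 CPM, 85 counts) and Kcnq1 in RFP+ well F12 (2.95 CPM, 4 counts). Cacna1h is the one with more than 4 counts. B12 has the largest total of its group, 2525460 counts, and the largest summed cardiomyocyte level, 51911 CPM, and F12 is the RFP+ library with blood transcripts.

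For 2 calcium handling genes the effect of population differed between embryo and spheroid by a test of the difference itself. The log2 fold change of RFP+ against GFP+ cells was -6.26 in the embryo and 1.17 in spheroids for Slc8a1, a difference of -7.43, and -2.95 and 0.50 for Atp2a2, a difference of -3.45.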

How the results depend on the processing

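No paired analysis was possible because the wells carry no replicate number shared between groups. Genes called between the embryo populations numbered 858, and 1936 with DESeq2 and 2000 without a filter; between the spheroid populations 7747, and 13109 without a filter. Members called in the embryo numbered 1, 3 with DESeq2, and 0 to 1 with each embryo library left out (0 without F12); in spheroids 0, 1 with DESeq2 and 2 without a filter; between GFP+ cells 1, 3 with DESeq2 or a minimum count of 5, 2 with DESeq2 size factors, total counts or without well C9, 4 without a filter and 1 to 3 with each embryo library left out; between RFP+ cells 0, and 1 without a filter. Over these settings the share of all genes called lower was 2.4 to 5.33% in the embryo and 35.3 to 40.3% in spheroids, and the share called higher in embryo cells 13.7 to 29.4% for GFP+ and 13.2 to 21.9% for RFP+ cells. Between GFP+ cells Hcn4 was called with DESeq2, DESeq2 size factors, total counts or a minimum count of 5 and without C9, A12, C12 or E12 (log2 fold changes 0.90 to 1.26), but not without a filter (0.92), without B12 (0.33) or without D12 (0.37); the second member called without D12 was Cacna1c (4.09). Genes whose population effect differed numbered 430, 115 without a filter, and 241 to 634 with each embryo library left out (241 without G11). Hcn4 in the embryo differed by -2.88 to -1.83 on the log2 CPM scale with a library left out, each time above 0.05; at 3 or more counts its detection differed by -60 percentage points (Fisher's exact test, p = 0.167). Cacna1d detection between GFP+ cells passed 0.05 when thinned (54.1 points, p = 0.0492) or at 3 or more counts (68.4 points, p = 0.00643, Fisher's exact test). No value reversed. Depth limits the low levels: 3 counts correspond to 1.31 to 3.73 CPM in embryo GFP+ and 2.11 to 2.56 CPM in embryo RFP+ libraries.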
